A study of Homo sapiens with 32 samples.

Results

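TGFβ cytokines are secreted in a latent form, and the genes described here encode the ligands of this branch and the secreted proteins that hold or neutralise them. The 10 members were TGFB1, TGFB2 and TGFB3 (the TGFβ ligands), LTBP1, LTBP2, LTBP3 and LTBP4 (latent TGFβ binding proteins), INHBA (the activin βA subunit), and FST and FSTL3 (follistatin and follistatin-like 3). They were taken by gene symbol from a table of 17788 genes, and all 10 were among the 14865 genes with enough counts to be tested. RNA was sequenced from 32 libraries of MCF10A, an immortal but non-tumorigenic line of human breast epithelium grown in medium with EGF, insulin, hydrocortisone, cholera toxin and horse serum. Clones 27 and 2 were wild type (WT) for JUNB, which codes for an AP-1 transcription factor subunit, while in clones 1 and 65 (mut, or knock-out by label) JUNB had been edited with CRISPR/Cas9. The mut clones retained a smaller, TGFβ1-inducible JUNB polypeptide. Each clone received solvent, or TGFβ1 at 5 ng/ml for 6 h, 24 h or 72 h, in 2 replications, so that each of the 8 groups (WT solvent, WT 6 h, WT 24 h, WT 72 h, mut solvent, mut 6 h, mut 24 h and mut 72 h) held 4 libraries. Solvent libraries were labelled 0 h, but the methods of the study have solvent applied for 72 h and all cells harvested together. The TGFβ1 given was recombinant protein, so reads of TGFB1 measured only the cells' own transcript.

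Newly made TGFβ is cut by furin-like proteases but stays bound to its own propeptide, and LTBP1, LTBP3 and, more weakly, LTBP4 link this latent complex to the extracellular matrix, from which integrins and proteases release the active cytokine. LTBP2 is a matrix protein of the same family that does not bind the latent complex. Activin A, a dimer of the INHBA product, signals through its own receptors to the same SMAD2 and SMAD3 proteins as TGFβ, and follistatin and FSTL3 bind activins and keep them from their receptors. Several of these genes are themselves transcribed in response to TGFβ in epithelial cells. They may thus take part in feed-forward or feedback loops around the pathway, which were not tested here.

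Library totals lay between 39702412 and 54651906 counts, and levels are given as counts per 1000000 counts of the library (CPM), where 3 counts correspond to at most 0.0756 CPM. A library is named by clone and replication, such as 27-2, and libraries with the same name form a series. In each genotype 2 clones, each grown from a single cell, stand for the genotype, and replications of a clone are not separate lines, so that p-values measure the spread between these libraries. Series 27-2 correlated least with the rest of its group in 4 of 4 WT groups, with a mean Pearson r of 0.962 to 0.969 over the tested genes, and series 1-2 did so in 3 of 4 mut groups, with 0.979 to 0.981. Calls that change without these series are given both ways. JUNB itself lay between 89.7 and 297 CPM in WT libraries and between 69.2 and 518 CPM in mut libraries, so its counts do not check the genotype labels. All 10 mammary epithelial and basal markers examined (such as KRT5, KRT14, TP63 and CDH1) were detected, with a summed level of 8074 to 13070 CPM in WT and 10480 to 16190 CPM in mut libraries. Among markers of other cell types, PTPRC reached 0.0498 CPM, CD3E 0.0457 CPM, VWF 0.140 CPM and COL1A2 0.364 CPM, while KDR and CD14 reached 27.0 and 28.1 CPM. The summed level of the 5 fibroblast markers with a row was 15.2 to 25.0 CPM in solvent and 25.1 to 91.3 CPM with TGFβ1, with COL1A1 and DCN at up to 73.4 and 33.5 CPM, and its part in the results was not tested. Marker sums also differed between the genotypes. In solvent the epithelial sum was 9018 to 11140 CPM in WT and 11800 to 13910 CPM in mut libraries, the endothelial sum (2 of 4 markers with a row) 5.62 to 15.1 and 21.1 to 27.0 CPM, and the leukocyte sum (3 of 4) 9.98 to 18.99 and 22.1 to 28.1 CPM. The endothelial sum was almost wholly KDR and the leukocyte sum CD14, since VWF, PTPRC and CD3E stayed at or below 0.140 CPM. Genotypes did not overlap in the endothelial and leukocyte sums in any of the 4 states, nor in the epithelial sum except at 72 h. The fibroblast sum was lower in mut libraries at 6 h (25.1 to 35.8 CPM, against 41.7 to 60.6 CPM) and at 24 h (33.8 to 47.9 CPM, against 68.0 to 91.3 CPM) and overlapped in solvent and at 72 h. The part of these markers in the differences between mut and WT cells was not tested.

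Sequences just upstream of the start are shown for TGFB1, the TGFβ ligand with the highest level, and for LTBP1 and FSTL3, the 2 members that were lower in mut cells in all 4 states. They are taken from RefSeq (GRCh38.p14), run 5′ to 3′ on the strand of the gene, and cover the 250 bases before the start. Capitals mark the SP1 box GGGCGG in TGFB1 and FSTL3 and the cyclic AMP response element TGACGTCA in LTBP1, on either strand.
TGFB1, minus strand of chr19:41353923-41354172: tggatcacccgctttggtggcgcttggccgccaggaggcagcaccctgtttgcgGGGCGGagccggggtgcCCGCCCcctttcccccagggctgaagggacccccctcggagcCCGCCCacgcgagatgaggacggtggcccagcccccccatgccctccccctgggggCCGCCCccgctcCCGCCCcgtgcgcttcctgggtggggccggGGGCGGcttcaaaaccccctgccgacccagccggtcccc
LTBP1, plus strand of chr2:32946703-32946952: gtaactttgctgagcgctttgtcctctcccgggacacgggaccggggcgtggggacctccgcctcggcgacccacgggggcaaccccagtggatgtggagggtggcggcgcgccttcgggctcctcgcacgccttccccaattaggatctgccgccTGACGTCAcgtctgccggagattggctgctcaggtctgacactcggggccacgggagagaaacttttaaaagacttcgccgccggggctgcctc
FSTL3, plus strand of chr19:676142-676391: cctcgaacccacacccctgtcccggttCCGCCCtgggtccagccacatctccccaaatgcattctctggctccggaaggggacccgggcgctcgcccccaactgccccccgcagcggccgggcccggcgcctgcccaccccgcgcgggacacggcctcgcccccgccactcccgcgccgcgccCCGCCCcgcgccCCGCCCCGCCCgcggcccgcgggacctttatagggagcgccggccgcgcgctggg

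RefSeq promoter windows of 300 bases, which add 50 bases after the start, were found for all 10 members (15 windows, since some genes have several starts). On either strand, with overlapping matches counted separately, the AP-1 element TGACTCA matched in 0 of 10 members, against 4.95% of all 35116 windows. The SMAD element GTCTAGAC likewise matched in 0 members, against 0.202% of all windows, and TGACGTCA matched in 1 member, LTBP1, against 1.85%. The LTBP1 match lay in the stretch shown, and the windows of its other starts held none. These shares are per window, and a member with several windows has more chances of a match. SP1 boxes were present in 8 of the 15 member windows, belonging to 6 members, against 45.0% of all windows, a share near the background, with 7 matches in TGFB1, of which 6 lie in the stretch shown, and 4 in FSTL3. A match is a description of the letters only, and elements farther away or spelled otherwise were not searched.

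Per exon length, the cells contained far more transcript of the FSTL3 inhibitor than of the activin subunit it binds, and far more TGFB1 than TGFB2 or TGFB3. Averaged over the 32 libraries, FSTL3 had 86.1 reads per kilobase of exon in each 1000000 counts (RPKM), LTBP1 48.9, LTBP2 41.8, TGFB1 37.3, LTBP3 13.7, LTBP4 5.08, FST 2.28, INHBA 1.19, TGFB2 0.346 and TGFB3 0.294. The ranges over libraries of the first 4 genes overlapped, and each gene from LTBP4 down overlapped with the next. LTBP3 overlapped with LTBP2, which went down to 12.9 RPKM, while the highest LTBP3 level (19.4 RPKM) lay below the lowest TGFB1 level (24.1 RPKM), and the highest LTBP4 level (7.26 RPKM) below the lowest LTBP3 level (7.88 RPKM). The group mean of TGFB1 was 57.9 to 230 times that of TGFB2 and 57.8 to 200 times that of TGFB3. FSTL3 was 41.7 to 85.8 times as high as INHBA and 23.7 to 81.4 times as high as FST. With the length of the longest transcript in place of all exons, LTBP3 moved to 32.7 RPKM, its longest transcript holding 4833 of 11521 exon bases, and its range (18.8 to 46.3 RPKM) then overlapped with that of TGFB1 (28.3 to 64.2 RPKM). On that scale TGFB3 (0.448 RPKM) passed TGFB2 (0.357 RPKM), while the other 8 genes kept their rank.

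**Figure D1:**
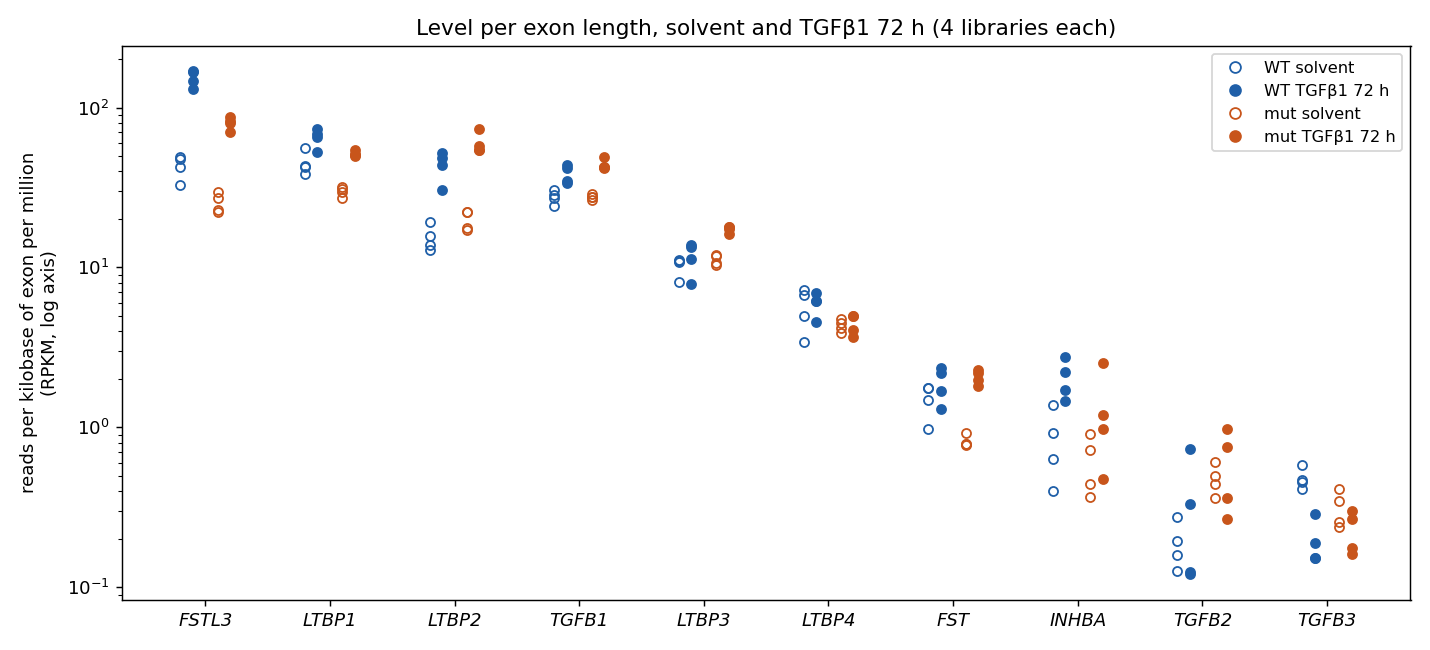
Level per exon length (RPKM, log axis) of the 10 members, ordered by their mean over 32 libraries, in WT (blue) and mut (orange) cells with solvent (open) or TGFβ1 for 72 h (filled), 4 libraries each. FSTL3 stands highest with a mean of 86.1 RPKM, and TGFB2 and TGFB3 lowest with 0.346 and 0.294 RPKM.

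In both genotypes TGFβ1 raised the transcripts of FSTL3, LTBP2 and TGFB1 from 6 h on and those of LTBP1 and FST by 24 h, while TGFB3 fell in WT cells. A gene is called changed where the Benjamini-Hochberg adjusted p of a limma-voom test over the 14865 genes is under 0.05, and every adjusted p below comes from this test unless another is named. In WT cells 3 members rose and 1 fell at 6 h, where 17% of all genes were called (5.13% higher, 11.9% lower). At 24 h 7 rose and 1 fell, against 52.1% of all genes (14.1% higher, 38% lower), and at 72 h 5 rose and 1 fell, against 52.2% (13.9% higher, 38.4% lower). In mut cells 4 members rose at 6 h, against 7% of all genes called (2.06% higher, 4.94% lower). Then 6 rose at 24 h, against 23.8% (6.75% higher, 17.1% lower), and 6 at 72 h, against 24.1% (7.81% higher, 16.3% lower), and none fell.

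The excess of lower calls among all genes depended on the scaling by library size. The median log2 change over all genes was -0.08, -0.18 and -0.19 at 6, 24 and 72 h in WT cells and -0.06, -0.10 and -0.09 in mut cells. With trimmed mean of M-values (TMM) factors it lay between -0.03 and 0.00, and the higher and lower shares were 7.01% and 6.18%, 23.5% and 23.2%, and 21.5% and 23.3% in WT cells, and 2.80% and 2.06%, 9.26% and 8.04%, and 10.7% and 9.91% in mut cells. Over the 10 members the median log2 change by library size was 0.32, 0.67 and 0.44 in WT cells and 0.36, 0.73 and 0.72 in mut cells. No called change of a member turned its direction under TMM factors or any other alternative. As the RNA came from whole cultures, fewer cells of a type and less RNA per cell cannot be told apart.

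**Figure D2:**
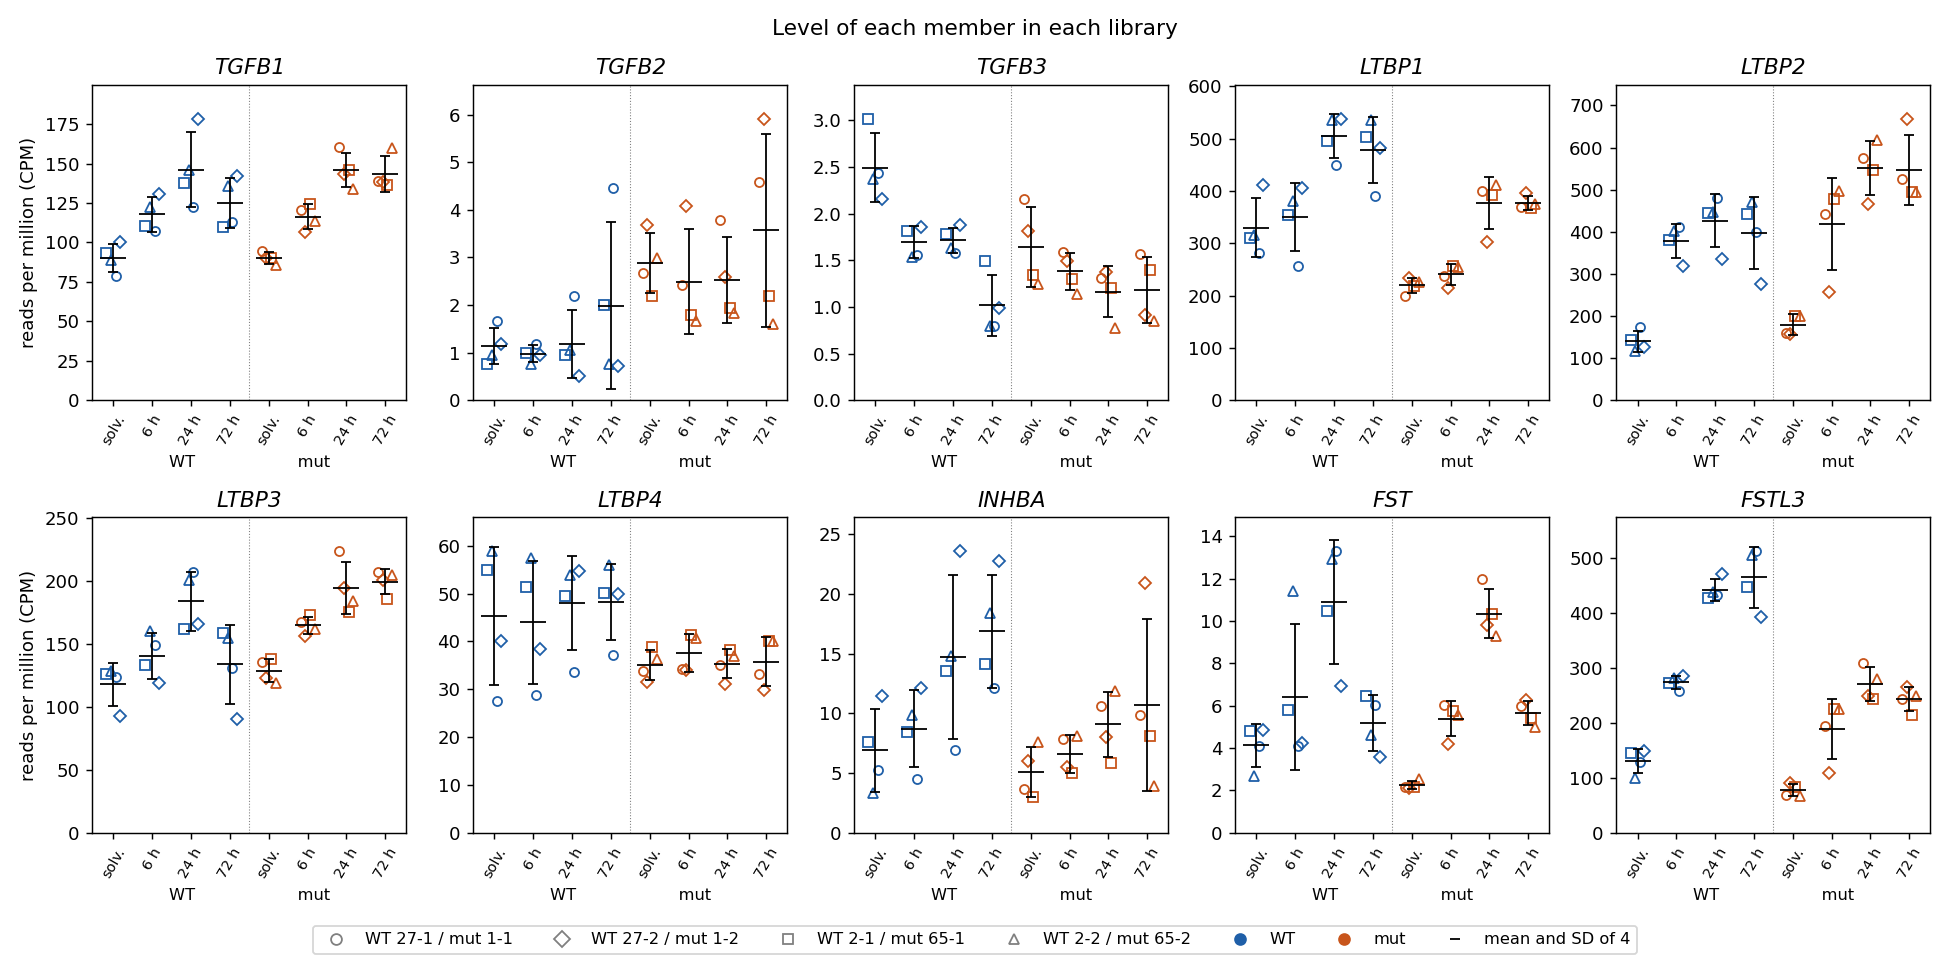
Level (CPM) of each member in each library, by group, with WT in blue and mut in orange, symbols for the 4 series of a genotype, and black bars for the mean and SD of 4 libraries. FSTL3 and LTBP2 stand above solvent in every treated library of both genotypes, FST peaks at 24 h, and LTBP4 stays level.

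TGFB1 (ENSG00000105329, chromosome 19, 41301587 to 41353922, minus strand) encodes the ligand that was also given to the cells. Its level in WT solvent libraries was 93.2 CPM (2-1), 88.7 (2-2), 78.5 (27-1) and 100 (27-2), and in WT 24 h libraries 138, 146, 122 and 178 CPM in the same order. In mut solvent it was 94.4 CPM (1-1), 90.0 (1-2), 90.4 (65-1) and 85.6 (65-2), and at 24 h 161, 143, 146 and 134 CPM. Treated and solvent libraries did not overlap in either genotype at any of the 3 times. The log2 change in WT cells was 0.39 ± 0.10 (SE) at 6 h (adjusted p = 0.0062), 0.69 ± 0.10 at 24 h (9.88e-07) and 0.47 ± 0.10 at 72 h (0.000211). In mut cells it was 0.37 ± 0.10 (0.0218), 0.69 ± 0.10 (8.73e-06) and 0.67 ± 0.10 (8.19e-06). The mut call at 6 h was lost without solvent library 1-2 or 65-2 or without 6 h library 1-1, 65-1 or 65-2 (adjusted p = 0.0512 to 0.104). All 8 series rose against their own solvent library at each time, by 0.24 to 0.90 on the log2 scale. From start to end of the gene, TGFB1 overlaps HNRNPUL1, CCDC97 and TMEM91 on the other strand, and the library kit keeps no strand. Reads in shared stretches could therefore affect its count, but whether exons are shared was not examined.

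TGFB2 (ENSG00000092969, chromosome 1, 218345336 to 218444619, plus strand), a second ligand of the family, was not called in any comparison with solvent, and its libraries scattered widely. In WT solvent it lay at 0.766 CPM (2-1), 0.957 (2-2), 1.66 (27-1) and 1.18 (27-2), and at 72 h at 2.01, 0.754, 4.46 and 0.728 CPM. At 72 h in mut cells it lay at 4.58 CPM (1-1), 5.92 (1-2), 2.18 (65-1) and 1.61 (65-2), against 2.67, 3.68, 2.19 and 2.997 CPM in solvent. In both genotypes 2 of 4 series rose and 2 fell by 72 h. The log2 change then was 0.41 ± 0.57 in WT cells (adjusted p = 0.566) and 0.21 ± 0.38 in mut cells (0.736).

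TGFB3 (ENSG00000119699, chromosome 14, 75958097 to 75983011, minus strand), the third ligand, was the only member called lower with TGFβ1. WT solvent libraries had 3.02 CPM (2-1), 2.37 (2-2), 2.43 (27-1) and 2.16 (27-2), and WT 72 h libraries 1.49, 0.800, 0.791 and 0.991 CPM, with no overlap. The log2 change at 72 h was -1.33 ± 0.23 (adjusted p = 1.75e-05; -1.17 with TMM factors, 9.57e-05), and all 4 series fell, by 1.02 to 1.62 on this scale. At 6 h and 24 h the log2 changes were -0.56 ± 0.20 (0.0454) and -0.54 ± 0.19 (0.0205), but these calls were lost with TMM factors (-0.49 and -0.36, adjusted p = 0.0949 and 0.118). The call at 6 h was lost in 8 of the 9 alternatives that left out no single library, among them the removal of series 27-2 (0.0533) or 1-2 (0.053), and on leaving out any 1 library except WT solvent 27-2 (0.0546 to 0.144). The call at 24 h was lost without WT solvent library 2-1 (0.0813) or 24 h library 27-1 (0.0598), and by the edgeR quasi-likelihood (0.192) and DESeq2 (0.186) tests. In mut cells TGFB3 lay at 2.16 CPM (1-1), 1.82 (1-2), 1.35 (65-1) and 1.25 (65-2) in solvent and 1.57, 0.918, 1.40 and 0.849 at 72 h, and the groups overlapped. Its log2 change there was -0.48 ± 0.23 (adjusted p = 0.127), and with the series as a block the adjusted p was 0.0425. Counts were low, at 33 to 134 per library, and the gene shares a stretch with IFT43 on the other strand.

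LTBP1 (ENSG00000049323, chromosome 2, 32946953 to 33399509, plus strand), the best known carrier of latent TGFβ, rose late in both genotypes. In WT solvent it had 311 CPM (2-1), 315 (2-2), 282 (27-1) and 412 (27-2), and at 24 h 495, 536, 451 and 538 CPM. In mut solvent it had 200 CPM (1-1), 233 (1-2), 218 (65-1) and 227 (65-2), and at 24 h 400, 303, 393 and 411 CPM. The groups at 24 h did not overlap with solvent, whereas at 6 h they did in both genotypes. Its log2 change at 24 h was 0.63 ± 0.12 in WT cells (adjusted p = 8.03e-05) and 0.77 ± 0.12 in mut cells (3.83e-05). At 72 h it was 0.54 ± 0.12 (0.000474) and 0.78 ± 0.12 (1.92e-05), and at 6 h 0.08 ± 0.12 (0.731) and 0.13 ± 0.12 (0.567).

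LTBP2 (ENSG00000119681, chromosome 14, 74498183 to 74612378, minus strand), the family member that binds no latent TGFβ, had the earliest and largest rise among the LTBP genes. WT solvent libraries had 142 CPM (2-1), 117 (2-2), 174 (27-1) and 126 (27-2), and WT 6 h libraries already had 380, 403, 411 and 320 CPM. In mut cells the level rose from 160 CPM (1-1), 156 (1-2), 201 (65-1) and 201 (65-2) to 443, 256, 477 and 496 CPM at 6 h. Every treated library of either genotype lay above every solvent library of it. The log2 change in WT cells was 1.44 ± 0.18 at 6 h (adjusted p = 1.64e-06), 1.61 ± 0.18 at 24 h (1.69e-08) and 1.49 ± 0.18 at 72 h (6.74e-08). In mut cells it was 1.18 ± 0.17 (0.000115), 1.62 ± 0.17 (2.15e-07) and 1.60 ± 0.18 (1.45e-07).

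LTBP3 (ENSG00000168056, chromosome 11, 65538559 to 65558930, minus strand), which also carries latent TGFβ and whose count could hold reads of the other strand, rose by 24 h in both genotypes but was back near the solvent level at 72 h in WT cells. WT solvent libraries had 126 CPM (2-1), 129 (2-2), 124 (27-1) and 92.9 (27-2), WT 24 h libraries 162, 201, 207 and 166 CPM, and WT 72 h libraries 159, 155, 131 and 90.8 CPM. The WT log2 change was 0.64 ± 0.13 at 24 h (adjusted p = 0.000117) and 0.16 ± 0.13 at 72 h (0.314). The value at 72 h was 0.32 with TMM factors (0.0466) and 0.23 without series 27-2 (0.0489), or 0.34 without its 72 h library alone (0.0135), so that the call at 72 h depends on these choices. In mut solvent the level was 136 CPM (1-1), 123 (1-2), 138 (65-1) and 119 (65-2), at 24 h 224, 194, 176 and 184 CPM, and at 72 h 207, 201, 186 and 205 CPM. Mut log2 changes were 0.59 ± 0.13 at 24 h (adjusted p = 0.00136) and 0.63 ± 0.13 at 72 h (0.000521). At 6 h they were 0.26 ± 0.13 in WT (0.186) and 0.36 ± 0.13 in mut cells (0.0851), both called with the series as a block (0.0246 and 0.00493), the mut change also without series 27-2 (0.00842).

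LTBP4 (ENSG00000090006, chromosome 19, 40592883 to 40629818, plus strand), a matrix protein that also acts in elastic fibre assembly, was not called in any comparison with solvent. Its level in WT solvent was 54.9 CPM (2-1), 58.9 (2-2), 27.5 (27-1) and 40.1 (27-2), and at 72 h 50.1, 56.0, 37.2 and 49.8 CPM. In mut cells it lay at 33.8 CPM (1-1), 31.5 (1-2), 38.8 (65-1) and 36.3 (65-2) in solvent and at 33.1, 29.8, 40.1 and 40.1 CPM at 72 h. The log2 changes over the 3 times lay between -0.02 and 0.14 in WT cells and between 0.01 and 0.10 in mut cells, each with an SE of about 0.20. The spread in WT solvent followed the clones, since both libraries of clone 2 were above both of clone 27.

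INHBA (ENSG00000122641, chromosome 7, 41667168 to 41705834, minus strand), the source of activin A and activin AB, rose in WT cells. WT solvent libraries had 7.63 CPM (2-1), 3.33 (2-2), 5.28 (27-1) and 11.4 (27-2), and at 72 h 14.1, 18.4, 12.1 and 22.8 CPM, and these groups did not overlap. The log2 change was 1.07 ± 0.44 at 24 h (adjusted p = 0.0403) and 1.40 ± 0.43 at 72 h (0.00735). All 4 WT series rose at both times, but the call at 24 h was lost without series 27-2 (log2 change 1.05, adjusted p = 0.0697) and on leaving out solvent library 2-1, 2-2 or 27-1 or 24 h library 2-1, 2-2 or 27-2 (0.0536 to 0.152). In mut cells INHBA lay at 3.68 CPM (1-1), 5.98 (1-2), 3.03 (65-1) and 7.58 (65-2) in solvent and at 9.84, 20.9, 8.14 and 3.93 CPM at 72 h, where library 65-2 had fallen. The mut log2 changes were 0.89 ± 0.49 at 24 h (0.194) and 0.97 ± 0.48 at 72 h (0.143), and the latter had an adjusted p of 0.0412 with the series as a block and of 0.0299 without library 65-2 at 72 h. The DESeq2 Wald test also called the change at 72 h (0.0424), and a fit of the 2 groups alone that at 24 h (0.0399). All 4 mut series rose at 24 h and 3 of 4 at 72 h. The mut change minus the WT change was not called at 24 h (-0.18 ± 0.655, 0.911) or 72 h (-0.42 ± 0.64, 0.727). The antisense gene INHBA-AS1 had at most 0.201 CPM in any library.

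FST (ENSG00000134363, chromosome 5, 53480626 to 53487134, plus strand), the high-affinity activin binder, peaked at 24 h in both genotypes. In WT solvent it had 4.82 CPM (2-1), 2.70 (2-2), 4.11 (27-1) and 4.87 (27-2), at 24 h 10.5, 12.9, 13.3 and 6.94 CPM, and at 72 h 6.48, 4.62, 6.02 and 3.60 CPM. In mut solvent it had 2.16 CPM (1-1), 2.13 (1-2), 2.17 (65-1) and 2.53 (65-2), at 24 h 11.98, 9.80, 10.3 and 9.29 CPM, and at 72 h 6.00, 6.26, 5.43 and 4.98 CPM. Mut libraries at 72 h all stayed above their solvent group, while WT libraries at 72 h overlapped with theirs. WT log2 changes were 0.56 ± 0.28 at 6 h (adjusted p = 0.186), 1.39 ± 0.26 at 24 h (4.69e-05) and 0.31 ± 0.29 at 72 h (0.383). Without series 27-2 the value at 6 h was 0.81 (adjusted p = 0.046). In mut cells they were 1.25 ± 0.32 (0.0182), 2.19 ± 0.30 (6.68e-06) and 1.34 ± 0.32 (0.00264), of which the first was not called without solvent library 1-1 or 1-2 or 6 h library 65-1 or 65-2 (0.0556 to 0.0695).

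FSTL3 (ENSG00000070404, chromosome 19, 676392 to 683392, plus strand), a secreted and nuclear relative of follistatin that binds activins and myostatin, had the largest rise of the members in WT cells at 24 h and 72 h. WT solvent libraries had 144 CPM (2-1), 100 (2-2), 129 (27-1) and 149 (27-2), WT 6 h libraries 272, 282, 257 and 284 CPM, and WT 72 h libraries 447, 506, 512 and 393 CPM. Mut solvent libraries had 68.9 CPM (1-1), 90.0 (1-2), 82.9 (65-1) and 67.7 (65-2), mut 6 h libraries 195, 109, 225 and 224 CPM, and mut 72 h libraries 243, 266, 215 and 249 CPM. All treated libraries lay above all solvent libraries of their genotype, although mut 6 h library 1-2 had risen by only 0.27 on the log2 scale against its own solvent library. The WT log2 change was 1.08 ± 0.15 at 6 h (adjusted p = 1.45e-05), 1.77 ± 0.15 at 24 h (3.52e-10) and 1.84 ± 0.15 at 72 h (2.45e-10). In mut cells it was 1.24 ± 0.16 (2.04e-05), 1.81 ± 0.16 (5.92e-09) and 1.66 ± 0.16 (1.42e-08).

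**Figure D3:**
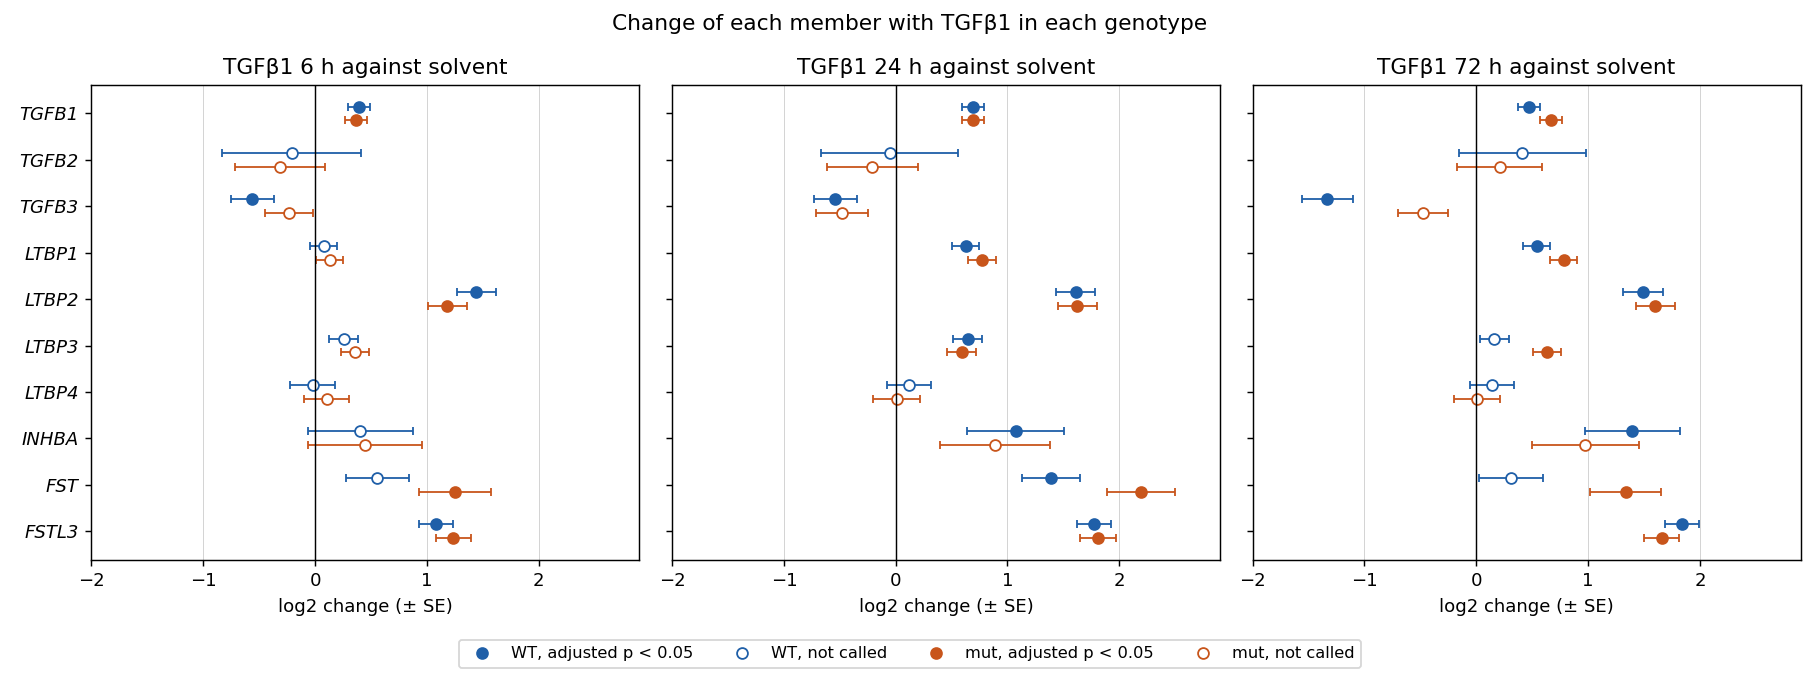
Log2 change of each member with TGFβ1 against solvent at 6, 24 and 72 h in WT (blue) and mut (orange) cells, with the SE of the limma-voom fit (4 against 4 libraries) and filled points where the adjusted p is under 0.05. FSTL3 and LTBP2 rise at every time in both genotypes, whereas at 72 h TGFB3 is called lower (-1.33) in WT cells, and LTBP3 (0.63) and FST (1.34) are called higher in mut cells.

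Between 6 h and 24 h in WT cells 5 members were called, against 28.2% of all genes. These were TGFB1 (log2 difference 0.30 ± 0.10, adjusted p = 0.0197), LTBP1 (0.55 ± 0.12, 0.00105), LTBP3 (0.39 ± 0.13, 0.0232), FST (0.83 ± 0.23, 0.00691) and FSTL3 (0.69 ± 0.15, 0.00101), all higher at 24 h. TGFB1 lost its call without 6 h library 2-1 or 27-1 or 24 h library 27-2 (0.0583 to 0.125; log2 difference 0.20 without the last), and LTBP3 without 6 h library 2-1 or 27-2 or 24 h library 2-2 or 27-1 (0.0561 to 0.0899), while INHBA was called without 24 h library 27-1 (log2 difference 1.03, 0.0491). Between 24 h and 72 h in WT cells 3 were called, against 7.83% of all genes, and all 3 fell. FST decreased by 1.08 ± 0.24 (adjusted p = 0.00623), TGFB3 by 0.79 ± 0.24 (0.0359) and LTBP3 by 0.48 ± 0.13 (0.0175) on the log2 scale. None of these 3 calls held when the fit used only the 2 groups (0.0552, 0.0904 and 0.131), and TGFB3 lost it without series 27-2 (0.123). Leaving out any 1 library except 72 h library 2-1 also ended the call of TGFB3 (0.0634 to 0.123), and leaving out 24 h library 2-2 or 27-1 or 72 h library 27-2 that of LTBP3 (0.0716 to 0.109; log2 difference -0.31 without the last). With the series as a block, TGFB1 was also called lower at 72 h than at 24 h in WT cells (log2 difference -0.22, 0.0148).

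In mut cells 3 members were called between 6 h and 24 h, against 3.12% of all genes. LTBP1 (log2 difference 0.64 ± 0.12, adjusted p = 0.00491), FST (0.94 ± 0.24, 0.0256) and FSTL3 (0.57 ± 0.15, 0.0351) were higher at 24 h. Without series 1-2, in which LTBP2 and FSTL3 were low at 6 h, FST (0.0861) and FSTL3 (log2 difference 0.37, 0.0898) were no longer called. Single libraries had the same effect, for FST 1-2 or 65-1 at 6 h and 1-1, 65-1 or 65-2 at 24 h (0.0544 to 0.125), and for FSTL3 1-2 at 6 h (log2 difference 0.33) and 1-1, 65-1 or 65-2 at 24 h (0.0584 to 0.171). The series block added TGFB1 (0.33, 0.00165; 0.0147 without series 27-2) and LTBP2 (0.44, 0.0366). Between 24 h and 72 h 0 of 10 members were called in mut cells, against 1.31% of all genes, and 1 had an unadjusted p under 0.05. This was FST, whose log2 difference of -0.86 ± 0.23 had an adjusted p of 0.0572 (0.00727 with the series as a block, 0.0159 without series 27-2, 0.0184 by the DESeq2 Wald test), and whose 24 h and 72 h libraries did not overlap. The edgeR quasi-likelihood test called 0 members.

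Compared with WT cells, mut cells had less FSTL3 and LTBP1 transcript in all 4 states. In solvent 3 members were called, against 12.7% of all genes, and at 6 h 2, against 21.4%. At 24 h 2 were called, against 36.9%, and at 72 h 5, against 39.2%. The log2 difference of FSTL3 in solvent was -0.75 ± 0.16 (adjusted p = 0.00171), and after 6 h, 24 h and 72 h of TGFβ1 it was -0.60 ± 0.15 (0.00558), -0.71 ± 0.15 (0.000563) and -0.93 ± 0.15 (2.05e-05), and its WT and mut libraries overlapped in no state. At 6 h a fit of the 2 groups alone gave an adjusted p of 0.0611, and without mut series 1-2 the difference was only -0.35 (0.0295). For LTBP1 the solvent value was -0.58 ± 0.12 (0.00156), followed by -0.52 ± 0.12 (0.00228), -0.43 ± 0.12 (0.00653) and -0.33 ± 0.12 (0.0291) at the 3 times of TGFβ1, with an overlap only at 72 h. The 72 h call of LTBP1 was lost without WT library 2-1, 2-2 or 27-2 or mut library 1-1, 65-1 or 65-2 (0.0518 to 0.105). TGFB3 was lower in mut cells in solvent (-0.64 ± 0.20, 0.0295). This call was lost by the edgeR quasi-likelihood test (0.0796) and the DESeq2 Wald test (0.054). Sums of the replications of a clone (0.114) and a fit of the 2 groups alone (0.104) lost it too. So did leaving out WT library 2-1 or 27-1 or mut library 65-1 or 65-2 (0.0527 to 0.136). At 24 h TGFB3 differed by -0.58 ± 0.23 (0.0506; 0.0242 with TMM factors), with no overlap.

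At 72 h LTBP3 was higher in mut than in WT cells, by 0.61 ± 0.13 on the log2 scale (adjusted p = 0.000391), with no overlap between libraries. LTBP2 was higher by 0.48 ± 0.18 (0.0309), but this was 0.39 with TMM factors (0.0858) and 0.31 without series 27-2 (0.136), and 72 h library 27-2 or 1-2 alone sufficed to end the call (0.163 and 0.113). At 24 h LTBP2 was called only without series 1-2 and in the fit of both groups alone (0.0226 and 0.0268). TGFB2 had a log2 difference of 1.14 ± 0.45 at 72 h (0.0445), and the call was lost in 9 of the 9 alternatives that left out no single library and without 72 h library 2-1, 2-2, 27-2, 1-1 or 1-2 (0.051 to 0.202). In solvent and at 6 h its libraries did not overlap between the genotypes, with log2 differences of 1.35 ± 0.51 (0.0834) and 1.24 ± 0.54 (0.0996) that were not called, though the DESeq2 Wald test (0.0302 and 0.0224) and the fit of both groups alone (0.0146 and 0.0307) called both and the edgeR quasi-likelihood test the one at 6 h (0.0495). FST in solvent was likewise lower in every mut library than in every WT library, at -0.84 ± 0.34 (0.106), and was called by the edgeR quasi-likelihood test (0.0254) and the DESeq2 Wald test (0.00793). TGFB1, in contrast, had log2 differences of 0.01 ± 0.10, -0.02 ± 0.10 and 0.01 ± 0.10 with solvent and after 6 h and 24 h. At 72 h its difference was 0.20 ± 0.10 (0.0993; 0.0132 without series 27-2). LTBP4 at 72 h had a log2 difference of -0.44 ± 0.20 (0.0843), which TMM factors brought to -0.51 (0.0442) and the removal of WT library 27-1 to -0.56 (0.037), and which the edgeR quasi-likelihood (0.0364) and DESeq2 (0.0162) tests also called. The log2 difference of INHBA at 72 h was -0.82 ± 0.38 (0.0874), and without series 1-2 it was -1.25 (0.0221). LTBP4 at 24 h differed by -0.41 (0.115) and was called by the edgeR quasi-likelihood test (-0.53, 0.0365), the DESeq2 Wald test (-0.52, 0.0205) and without WT library 27-1 (-0.58, 0.0278). TGFB2 at 24 h had a log2 difference of 1.19 (0.0753) and was called in the fit of both groups alone (0.0417) and without WT library 27-1 (1.62, 0.0468), and TGFB1 at 72 h was called without library 27-2 (0.27, 0.0406). Since each genotype rests on 2 clones, a difference between clones and a difference between genotypes cannot be told apart.

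**Figure D4:**
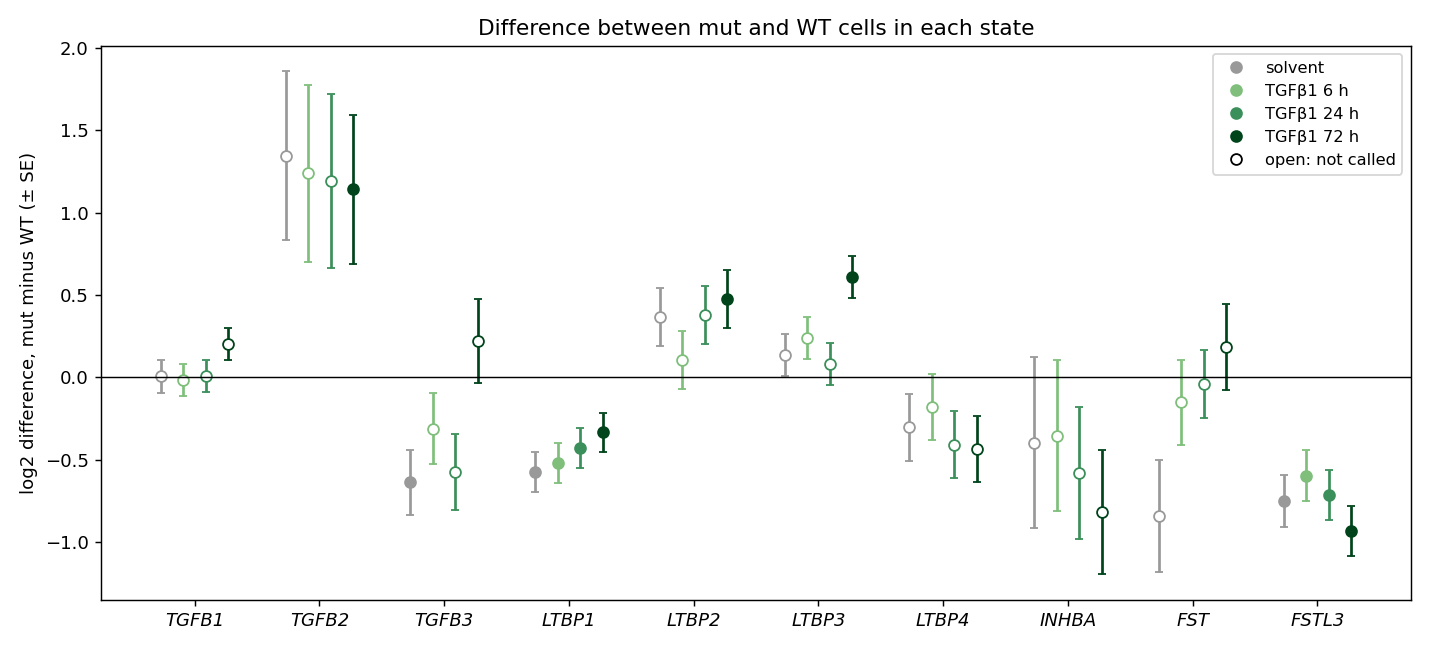
Log2 difference of each member between mut and WT cells in solvent and at each time of TGFβ1, with the SE of the limma-voom fit (4 against 4 libraries) and filled points where the adjusted p is under 0.05. FSTL3 (-0.93 to -0.60) and LTBP1 (-0.58 to -0.33) lie below 0 and are called in all 4 states, while TGFB1 lies near 0.

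Whether the change with TGFβ1 itself differed between the genotypes was tested as an interaction, the log2 change in mut minus that in WT cells. At 6 h 0 members were called, against 0.074% of all genes, at 24 h 0, against 9.65%, and at 72 h 0, against 12.3%. The number with an unadjusted p under 0.05 was 0, 0 and 3, and neither the edgeR quasi-likelihood test nor the DESeq2 Wald test called a member. The 3 at 72 h were TGFB3 (0.86 ± 0.32, adjusted p = 0.076), LTBP3 (0.47 ± 0.18, 0.086) and FST (1.03 ± 0.43, 0.118). With the series as a block TGFB3 (0.0296) and LTBP3 (0.00522) were called. LTBP3 was also called without series 27-2 (0.41, 0.0315), and FST in a fit of the 4 groups alone (0.0404). Leaving out WT 72 h library 2-1 brought the adjusted p of TGFB3 to 0.0408 and of LTBP3 to 0.0431, and 4 other single libraries each brought 1 of them under the threshold, namely mut solvent 1-1 (0.0426), mut 72 h 1-2 (0.0461) and mut 72 h 65-2 (0.0437) for TGFB3 and WT solvent 27-2 (0.0305) for LTBP3. For TGFB1, LTBP1, LTBP2 and FSTL3 the interaction at 24 h lay between 0.00 and 0.15, with an SE of 0.14 to 0.25. For these genes it lay between -0.26 and 0.155 at 6 h and between -0.18 and 0.24 at 72 h, with the same range of SE. FST at 24 h had an interaction of 0.80 ± 0.40 (adjusted p = 0.219).

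Transcripts of proteins that process, tether and release latent TGFβ were mostly called higher at 24 h and 72 h. Of 20 listed genes 19 were tested, and in WT cells 8 rose at 6 h (against 5.13% of all genes called higher), 12 rose and 1 fell at 24 h (14.1% higher and 38% lower), and 12 rose and 2 fell at 72 h (13.9% and 38.4%), with a median log2 change of 0.87 over the list at 72 h and of -0.19 over all genes. In mut cells 3 rose at 6 h (2.06% of all genes), 11 at 24 h (6.75%), and 11 rose and 2 fell at 72 h (7.81% and 16.3%), with a median of 0.46 over the list and of -0.09 over all genes. The 4 largest WT changes at 72 h were those of TGM2, a transglutaminase that crosslinks matrix (log2 change 4.76 ± 0.25), FN1, the fibronectin to which LTBP1 is tethered (4.33 ± 0.47), FBN1, the fibrillin of microfibrils (3.40 ± 0.39), and ITGB6, the β subunit of an integrin that activates latent TGFβ (2.82 ± 0.22). In mut cells they changed by 2.38 ± 0.22, 3.85 ± 0.47, 2.30 ± 0.42 and 2.57 ± 0.22. Of these 4, TGM2 differed in the interaction at 72 h (-2.39 ± 0.34, adjusted p = 6.29e-05), and ITGAV, MMP14 and BMP1 of the list were also called with a smaller change in mut cells. TGM2 already differed in solvent, where it was called higher in mut than in WT cells (1.33 ± 0.26, 0.000667, 71.6 against 29.2 CPM). At 72 h it was called lower in mut cells (-1.06 ± 0.22, 0.000288). BMP1 was also called higher in mut solvent libraries, while ITGAV and MMP14 were not called there. At 72 h 9 of the 19 genes were lower and 3 higher in mut than in WT cells, where 39.2% of all genes were called in either direction.

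Other ligands of the branch were few. Of 13 listed genes 7 were tested, and 1 rose and 1 fell in WT cells at 72 h, a smaller share than the 52.2% called of all genes. GDF11, a ligand that FST and FSTL3 also bind, rose by 0.97 ± 0.19 on the log2 scale in WT (adjusted p = 8.84e-05) and by 0.90 ± 0.23 in mut cells (0.00533), and was lower in mut cells in all 4 states. GDF15, a distant stress-induced relative, had a log2 change of -1.38 ± 0.35 in WT (0.0017) and -0.45 ± 0.29 in mut cells (0.281), and the interaction at 72 h was not called (0.94 ± 0.46, 0.188). GDF15 was called higher in mut than in WT cells at 24 h (0.86 ± 0.32, 0.0376) and 72 h (1.48 ± 0.35, 0.00122). INHBB, the other common activin subunit, averaged 0.0854 CPM in solvent for WT and 0.138 CPM for mut cells, and INHA, the inhibin α subunit, 0.798 and 0.889 CPM.

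Among 10 tested receptors and co-receptors of 12 listed, 4 rose and 1 fell in WT cells at 72 h, and 1 rose and 2 fell in mut cells. In either direction these totals were near the shares of all genes called, 52.2% and 24.1%. By direction, 13.9% of all genes were called higher and 38.4% lower in WT cells, and 7.81% and 16.3% in mut cells. TGFBR3, the betaglycan co-receptor that presents TGFB2, decreased by 1.75 ± 0.18 in WT (adjusted p = 8.78e-09) and by 1.54 ± 0.16 in mut cells (6.32e-08) on the log2 scale. TGFBR1, the type I TGFβ receptor, rose by 0.89 ± 0.11 in WT cells (1.55e-07) and had a log2 change of 0.06 ± 0.12 in mut cells (0.744), and the interaction was called (-0.83 ± 0.16, 0.00119). ACVR1, another type I receptor, rose by 0.65 ± 0.09 in WT cells (6.38e-07), had a log2 change of 0.18 ± 0.09 in mut cells (0.121) and was called in the interaction as well (-0.47 ± 0.12, 0.0124). BAMBI, a pseudoreceptor that dampens signalling, rose by 0.65 ± 0.23 in WT cells (0.0168) and had a log2 change of 0.19 ± 0.22 in mut cells (0.578), and the interaction was not called (-0.46 ± 0.32, 0.38).

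Of 16 other binding proteins 11 were tested, of which 3 rose and 2 fell in WT cells and 5 rose in mut cells at 72 h, where 52.2% and 24.1% of all genes were called (13.9% and 7.81% higher). VASN, a TGFβ-binding membrane protein, rose by 2.04 ± 0.19 in WT and 1.18 ± 0.16 in mut cells on the log2 scale, and FSTL1, a distant follistatin relative, by 1.87 ± 0.23 and 2.02 ± 0.27. SPARC, a matrix protein with a follistatin-like domain, rose by 1.16 ± 0.24 and 0.73 ± 0.24. FSTL1 was called lower in mut than in WT cells in all 4 states (22.5 against 60.7 CPM in solvent, 86.8 against 212 CPM at 72 h). SPARC was called lower at 24 h and 72 h, and the rise of VASN was called smaller in mut cells at both times. However, VASN was called higher in mut than in WT solvent libraries (10.77 against 6.68 CPM). It was called lower in mut cells at 24 h (30.65 against 40.44 CPM) and was not called at 72 h (24.45 against 27.31 CPM). Of the 11 genes, 2 were higher and 2 lower in mut solvent libraries, and 4 higher and 3 lower at 72 h, against 12.7% and 39.2% of all genes called. FSTL4 was called lower in WT cells at 72 h, but it averaged 0.127 CPM with solvent and only 0.0228 CPM by 72 h, the latter below the level of 3 counts. The 9 SMAD2/3 target genes, included as a check of the pathway, all rose in WT cells at each time, and 6, 8 and 9 of them rose in mut cells at 6, 24 and 72 h. At 72 h TGFBI, a secreted matrix protein, had a log2 change of 3.56 ± 0.24 in WT and 2.28 ± 0.24 in mut cells, PMEPA1 3.51 ± 0.25 and 3.05 ± 0.25, and SKIL, a feedback inhibitor of SMADs, 1.97 ± 0.18 and 1.77 ± 0.18.

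As a description across the 32 libraries, which share groups, clones and scaling, the genes most like each member were sought among 9633 genes with a mean of at least 10 CPM. FSTL3 followed ARHGEF18 (Pearson r of log2 CPM 0.97), RUSC2 (0.97) and SPHK1 (0.97), and LTBP1 followed HTRA1 (0.96) and NT5E (0.95). LTBP2 was most like JUN (0.96), EPHB2 (0.95) and CYTH1 (0.95), and TGFB1 most like ANXA5 (0.91), COL7A1 (0.91) and SLC29A1 (0.90). For the other members the highest r was lower, at 0.88 for LTBP3 (ADAMTS7), 0.86 for INHBA (ITPRIP), 0.85 for TGFB3 (NBEAL2), 0.83 for FST (IGSF3), 0.82 for LTBP4 (PEPD) and 0.78 for TGFB2 (MAP2). Among the members themselves the highest r was that of LTBP1 with FSTL3 (0.84), and the lowest were those of TGFB2 with LTBP4 (-0.74) and TGFB3 with LTBP2 (-0.65).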

How the data were processed

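RNA was sequenced with an unstranded kit on 32 MCF10A libraries. The authors trimmed reads with Trimmomatic and used STAR for alignment to GRCh38 (Ensembl) and for counting. The authors deposited raw read counts for each gene in each library (integers, not normalized), and whether counting used strand is not given in the sources used here. The table held 17788 genes, of which 17763 were named by GENCODE release 44, and 0 columns were left unused. Groups came from the labels. Members, gene lists and tests were chosen with earlier results of these data known.

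Following the study's methods, counts were scaled by library size and fitted with voom, lmFit and eBayes of limma 3.58.1 (R 4.3.3) with ~0 + condition over all 32 libraries. The filter (edgeR 4.0.16, filterByExpr with min.count 10 and min.total.count 15) and the interaction were added here. It left 14865 genes, and 17 comparisons were made, two-sided, with Benjamini-Hochberg adjustment over all genes within a comparison and a threshold of 0.05. CPM is counts per 1000000 counts, and RPKM is CPM per kilobase of the union of annotated exons. Named genes were the 10 members, JUNB, the 3 most similar genes of each tested member and, from each list, up to 4 genes with the largest change among those called in WT cells at 72 h.

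Alternatives were TMM factors, the edgeR quasi-likelihood test, the DESeq2 1.42.0 Wald test, no low-count filter, the groups of a comparison alone, sums of the replications of a clone, blocks, leaving out series 27-2 or 1-2, and leaving out each library. The fits were tested on simulated data. The labels give clone and replication, and deviations from the group mean correlated within a series (r 0.302 on average over 48 pairs, 0.0296 at the lowest), so that the series served as a block. Replicate libraries differed beyond sampling noise (chi-square per degree of freedom at least 11.6). Totals were 39702412 to 54651906 counts, and floors of 3 counts cover counting error only. Values of some other genes are not reported here.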

Additional observations from a re-analysis of the deposited data

Results flagged for a closer look

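Of 80 groups of 4 libraries (10 genes in 8 groups), 5 held a library set apart from the other 3 by more than the 95% critical value of Dixon's gap test, and chance alone flags about 1 in 20 groups. LTBP3 in WT solvent was 92.9 CPM in series 27-2, against 124 to 129 CPM in the others. In series 1-2, LTBP1 at 24 h was 303 CPM, against 393 to 411 CPM, and LTBP2 at 6 h was 256 CPM, against 443 to 496 CPM. In series 65-2, TGFB1 at 72 h was 160 CPM, against 136 to 139 CPM, and FST in solvent was 2.53 CPM, against 2.13 to 2.17 CPM.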

How the results depend on the processing

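Of 170 pairs of gene and comparison 57 were called, and 39 of these calls were kept under every alternative. The other 18 were lost under at least 1, and 0 called values turned direction, while 166 of 3130 values changed sign where neither fit called the gene. The series as a replicate block added 10 calls and lost 0. It raised the members called between 6 h and 24 h in mut cells from 3 to 5, between 24 h and 72 h in mut cells from 0 to 1 and in the interaction at 72 h from 0 to 2, and every member it added is named in the report. The replication number as a replicate block for mut against WT (mean r -0.0955 between clones of the same number) moved the count at 24 h from 2 to 3 and exchanged TGFB2 for INHBA (adjusted p = 0.0657 and 0.0487) among the 5 at 72 h.

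Fitting only the groups compared called 3 members in place of 5 (WT, 24 h against 6 h), 0 in place of 3 (WT, 72 h against 24 h), 1 in place of 0 (mut, 72 h against 24 h), 4 in place of 2 (mut against WT at 24 h) and 1 in place of 0 (interaction at 72 h). Sums of the replications of a clone called 1 in place of 3 for WT 72 h against 24 h and for mut 24 h against 6 h. Without series 1-2 the latter was also 1. Among other calls, sums of the replications ended those of TGFB3 in WT cells at 24 h (0.0674) and FST in mut cells at 6 h (0.0831). For mut against WT at 72 h they ended the call of LTBP2 (0.05155) and added TGFB1 (0.03735) and INHBA (0.0493). The edgeR quasi-likelihood and DESeq2 tests called 4 in place of 2 for mut against WT at 24 h, and DESeq2 called 1 for mut 72 h against 24 h. Without series 27-2 there was 1 call for mut 72 h against 24 h and 1 in the interaction at 72 h. The causes were not tested.

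Leaving out 1 library at a time gave 2 to 4 called members for mut 6 h against solvent, 3 to 5 for WT 24 h against 6 h, 1 to 3 for WT 72 h against 24 h, 1 to 3 for mut 24 h against 6 h, 2 to 4 and 3 to 6 for mut against WT at 24 h and 72 h, and 0 to 2 in the interaction at 72 h. Counts of TGFB2 and TGFB3, at 24 to 322 and 33 to 134 per library, limit the precision of their changes. No protein sequences were used here.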
